A study of Mus musculus with 9 samples.

Results

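The genes described here are 10 immediate early genes of the AP-1 and Egr families and their close companions: Fos, Fosb, Fosl1, Jun, Junb, Jund, Egr1, Ier2, Ier3 and Dusp1. They were chosen by name, and each was followed through every array probe that carries its current symbol or a synonym and whose tumour signal was marked well above background on at least 3 of 9 arrays. All 10 genes had such a probe, out of 13057 named genes measured, and they had 12 probes in all, because Junb and Ier2 each had 2. The samples were tumours of the B16-F10 mouse melanoma line, grown from 3 line variants which differ in histamine made by L-histidine decarboxylase (HDC): HDC-A with diminished, HDC-M with unmodified and HDC-S with enhanced histamine output. Each group is 1 line variant, so the variant and its histamine output cannot be told apart. RNA of 6 tumours per group was pooled by pairs into 3 pools, each labelled with Cy5 and hybridised with 1 common Cy3 reference, RNA of HDC-M cells grown in culture, with no dye swap. A bulk tumour holds stromal and immune cells beside melanoma cells, so fewer cells of a type and less RNA per cell cannot be told apart.

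Immediate early genes are switched on within minutes of a growth factor, stress or injury signal, without new protein synthesis, and their mRNAs are short-lived. MAP kinases act on factors already bound at their promoters, such as SRF with its Elk partners and CREB. Fos proteins pair with Jun proteins to form AP-1, which binds a short palindrome near many genes of growth, invasion and inflammation, and Egr1 is a zinc finger factor that binds GC-rich sites. Dusp1 removes the activating phosphates from MAP kinases and so closes the loop. In dissected tissue the same genes are also known to respond to handling and to lack of oxygen.

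Part of the sequence that carries these inputs lies just before the start of transcription, and 4 such stretches are shown: the 3 that hold a match to a searched motif, and that of Jun, the partner of Fos, for comparison. RefSeq promoter sequence on GRCm38.p6 was at hand for 7 of the 10 members. Each run gives the 250 bases before the annotated start, 5′ to 3′ on the strand of the gene, and capitals mark a match to one of 6 searched motifs. Fos lies on the plus strand (chr12:85473640-85473889), and Fosb (chr7:19310046-19310295), Dusp1 (chr17:26508473-26508722) and Jun (chr4:95052223-95052472) lie on the minus strand.
Fos: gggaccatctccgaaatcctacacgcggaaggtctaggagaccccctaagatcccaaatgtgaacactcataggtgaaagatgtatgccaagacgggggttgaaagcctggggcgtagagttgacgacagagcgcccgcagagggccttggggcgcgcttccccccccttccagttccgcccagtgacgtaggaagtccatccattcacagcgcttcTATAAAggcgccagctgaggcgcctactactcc
Fosb: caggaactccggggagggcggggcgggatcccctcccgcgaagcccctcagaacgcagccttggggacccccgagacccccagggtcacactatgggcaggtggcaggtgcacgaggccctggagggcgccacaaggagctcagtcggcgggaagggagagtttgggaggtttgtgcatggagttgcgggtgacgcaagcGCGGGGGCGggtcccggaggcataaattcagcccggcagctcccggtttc
Dusp1: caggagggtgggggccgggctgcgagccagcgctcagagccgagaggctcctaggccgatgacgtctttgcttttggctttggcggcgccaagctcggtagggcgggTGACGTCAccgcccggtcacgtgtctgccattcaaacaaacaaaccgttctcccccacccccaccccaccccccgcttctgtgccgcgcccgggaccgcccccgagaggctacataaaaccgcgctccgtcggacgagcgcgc
Jun: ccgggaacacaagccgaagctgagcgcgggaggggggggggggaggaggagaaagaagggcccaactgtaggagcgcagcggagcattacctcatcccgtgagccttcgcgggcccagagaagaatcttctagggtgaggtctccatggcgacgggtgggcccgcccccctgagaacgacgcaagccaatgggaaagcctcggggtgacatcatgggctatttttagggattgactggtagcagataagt
The capitals in Fos are the TATA motif TATAAA, 33 to 28 bases before the start, a motif that 12.4% of the 32851 promoters in the table hold on either strand. The capitals in Dusp1 are a full cAMP response element, TGACGTCA, found in 1.55% of promoters. The capitals in Fosb are an Egr motif, GCGGGGGCG, found in 2.57%. No match was found in any of the 7 windows for the AP-1 motif TGANTCA (6.75% of promoters), the CArG box of SRF (1.47%) or the Ets core CCGGAA of the Elk factors (12.0%), which says only that these letters are not in these windows. The motifs were searched on both strands. The windows of Jun, Junb, Jund and Ier3 held no match to any of the 6.

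The number of arrays limits the precision. The share of spots marked well above background in the tumour channel ran from 58.0% to 60.8% on the 6 arrays of the first scan day and from 62.6% to 69.7% on the other 3, and arrays of a group correlated between 0.90 and 0.95 over 25751 probes, against 0.86 to 0.92 between groups. No spot of the 10 genes was saturated or marked as an outlier. Hdc itself, the modified gene, had mean log2 ratios of 0.24 ± 0.16 for HDC-A, 0.38 ± 0.28 for HDC-M and 0.46 ± 0.14 for HDC-S (SD, n = 3), and the 3 groups' ranges overlapped. Replicates 1 and 2 of every group were scanned on a first day and replicate 3 on another. The signal of the probes differed widely. Jund and Junb were bright, with tumour signals from 2338 to 5343 and from 1912 to 3930 intensity units. Fos, Egr1 and Dusp1 were dim, with medians of 242, 252 and 249. Fosb, Fosl1 and the second Ier2 probe were the dimmest, and Fosl1 was well above background on 6 of 9 arrays, only 1 of them from HDC-M; its tumour signal was at most 1.28 times the median negative control. All the other probes were well above background on 9 of 9.

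Fos, the founding AP-1 partner, showed the widest range of the set. Its log2 ratio of tumour over cultured reference was 1.38, 1.29 and 0.72 in the HDC-M pools, 1.08, 1.84 and 1.46 in the HDC-A pools, and 1.61, 2.81 and 1.56 in the HDC-S pools, always in the order of replicates 1 to 3. The 3 HDC-S pools lay above every HDC-M pool, and a single one, HDC-S replicate 2, stood far above the rest. The raw tumour signal of Fos was 616 intensity units in that pool and between 170 and 289 in the 8 others. The mean was 0.86 log2 units higher in HDC-S than in HDC-M (SE 0.33, 95% confidence interval 0.11 to 1.61), a 1.82-fold difference. It did not pass limma's moderated test over all probes (adjusted p = 0.277), and the exact two-sided permutation p was 0.1, the smallest that 3 pools against 3 can give. Without HDC-S replicate 2 the difference was 0.45, and with scaling between arrays 0.56. With scan day as a block it was 0.86 (adjusted p = 0.260), and among the first day's pools alone 0.88 (adjusted p = 0.446).

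Fosb, a Fos relative that outlasts Fos in stimulated cells, followed the same pool. Its log2 ratios were 0.49, 1.81 and 0.49 in HDC-S, 0.57, 0.32 and 0.14 in HDC-M, and 0.59, 0.65 and 0.33 in HDC-A. Leaving aside HDC-S replicate 2, the other HDC-S pools lay within the range of the remaining groups. The difference of HDC-S from HDC-M was 0.59 (SE 0.31, interval -0.11 to 1.29, limma adjusted p = 0.430) and was 0.15 without that pool; the scanner software's ratios, which are not offset near background, gave 1.68 (adjusted p = 0.654). Fosl1, which encodes Fra-1, a Fos relative tied to invasive growth, had ratios close to 0 throughout, from -0.26 to 0.10. All 3 HDC-M pools lay above every other pool by a narrow margin, 0.06 to 0.10 against -0.26 to 0.01. The differences were -0.15 for HDC-S (interval -0.31 to 0.02) and -0.18 for HDC-A (interval -0.35 to -0.02) and did not pass (limma adjusted p = 0.416 and 0.271). With the tumour channel alone the HDC-S difference was 0.00034. At this signal the level of Fosl1 was near the limit of what the array detects.

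The 3 Jun genes encode the partners of Fos proteins. Jun was -0.17, 0.66 and -0.55 in HDC-S, -0.42, -0.37 and -0.24 in HDC-M, and -0.70, 0.00089 and -0.46 in HDC-A. The 3 HDC-M pools were close together, while the HDC-S pools spanned the highest value of all and the second lowest. Jund, often the most steadily made Jun, was 0.22, 1.30 and 0.50 in HDC-S, 0.16, -0.05 and 0.05 in HDC-M, and -0.15, 0.63 and 0.08 in HDC-A. All HDC-S pools exceeded all HDC-M pools. The difference was 0.62 (SE 0.27, interval 0.02 to 1.23, limma adjusted p = 0.331, exact permutation p = 0.1), 0.31 without HDC-S replicate 2, and 0.17 under median centring. Junb, which can restrain Jun, had its highest value in another pool: on the brighter probe 1.85 in HDC-A replicate 2, then 1.64 in HDC-S replicate 2, with the other pools between 0.75 and 1.29. The other Junb probe read lower but had the same 2 pools on top, at 1.41 and 1.08. The Junb difference of HDC-S from HDC-M was 0.13 on the brighter probe (interval -0.46 to 0.72), and it turned to -0.32 under median centring, -0.19 with scaling between arrays and -0.05 without HDC-S replicate 2.

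Egr1, a growth factor and injury response factor, split the pools rather than the groups. Its log2 ratios were 1.50, 1.48 and 0.64 in HDC-M, 1.02, 1.93 and 1.06 in HDC-A, and 0.78, 1.96 and 0.88 in HDC-S. Each group held a pool near or above 1.5 and a pool near or below 1.02, and the groups overlapped fully. The mean difference of HDC-S from HDC-M was 0.0032, with an interval from -0.82 to 0.83, and it was negative under 6 alternatives that kept all 9 arrays, down to -0.27 with the scanner software's ratios. An interval this wide leaves room for a difference of well over 1.5-fold in either direction.

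Ier2 and Ier3 are small early response genes, and Ier3 is known as a survival factor under NF-kB control. The brighter Ier2 probe ran from 0.08 to 0.46 over the 9 pools and the dimmer one from 0.07 to 0.48. The 2 probes did not rank the pools alike: HDC-S replicate 2 was the highest of all on the brighter probe, at 0.46, and only 0.24 on the dimmer one. Ier3 was 0.48, 1.27 and 0.71 in HDC-A, 0.41, 0.13 and 0.56 in HDC-M, and 0.82, 0.75 and 0.41 in HDC-S. HDC-A replicate 2 was its highest pool. The HDC-A mean was 0.45 above HDC-M (SE 0.20, interval 0.01 to 0.90, limma adjusted p = 0.316), 0.23 without that pool, and 0.05 under median centring. Dusp1, the MAP kinase phosphatase, ran from -0.24 in HDC-A replicate 1 to 0.49 in HDC-S replicate 2, and its differences between groups were -0.07, 0.06 and 0.13, each with an interval that included 0.

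**Figure D1:**
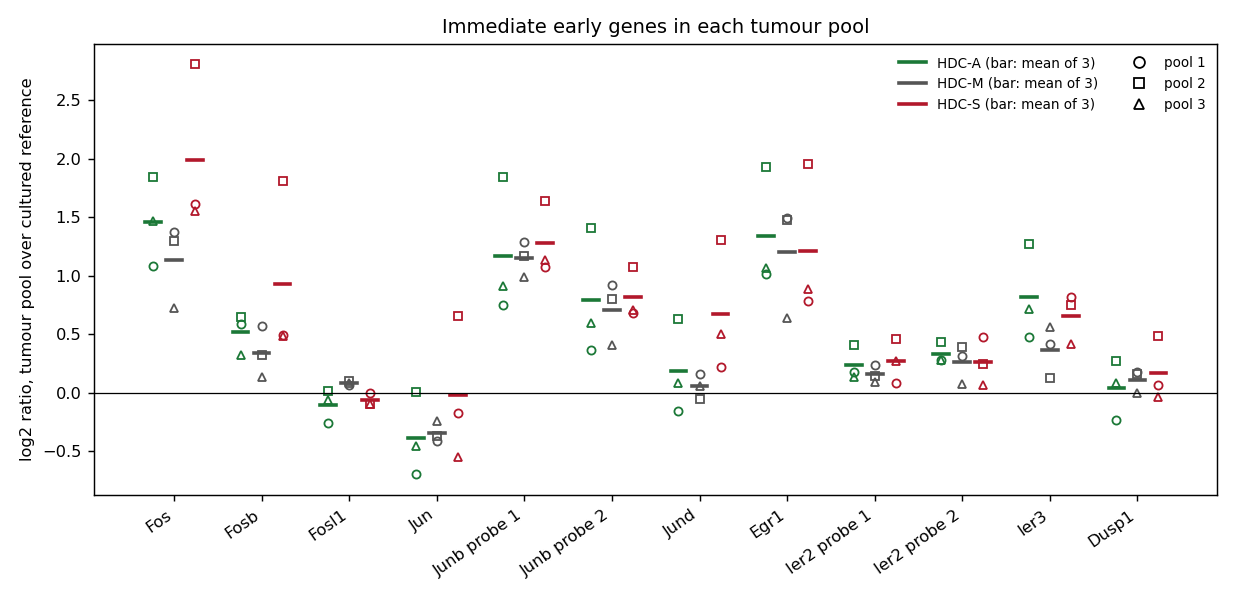
Log2 ratio of tumour over cultured reference (y axis) for the 12 probes (x axis), with 1 symbol per pool and a bar at the mean of the 3 pools of a group. HDC-S pool 2 gives the highest value for Fos (2.81), Fosb (1.81), Jun (0.66) and Jund (1.30), while the other pools of the groups largely overlap.

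Between tumour groups, none of the 12 probes passed limma's test at an adjusted p of 0.05 in any of the 3 contrasts, nor in the F-test for any difference. Of all probes, 0.681% passed for HDC-S against HDC-M, 1.44% for HDC-A against HDC-M, 5.26% for HDC-S against HDC-A and 4.65% in the F-test, shares at which 0 of 12 is near the background. At an unadjusted p under 0.05 there were 2 probes for HDC-S against HDC-M (Fos and Jund), beside 14.5% of all probes, 2 for HDC-A against HDC-M (Fosl1 and Ier3), beside 15.5%, and 0 for HDC-S against HDC-A, beside 19.4%. The counts of 2 of 12 are near these shares. The 3 pools of one group lay wholly apart from those of the other for 3 of 12 probes in HDC-S against HDC-M (Fos, Jund and, lower, Fosl1), beside 21.6% of all probes, for 1 in HDC-A against HDC-M (Fosl1), beside 20.1%, and for 0 in HDC-S against HDC-A, beside 23.8%.

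The signs leaned one way in the main processing, but not in every other. Over all probes, 118 calls were higher and 65 lower in HDC-S against HDC-M, but 18 and 19 with scaling between arrays and 2 and 3 under median centring. In that contrast 11 of 12 members' probes were higher, with a median difference of 0.12 against 0.01 over all probes. That count was 3 of 12 under median centring, which moved the median of all probes to -0.12, 7 of 12 with scaling between arrays, and 6 of 12 without HDC-S replicate 2. In HDC-A against HDC-M, 9 of 12 were higher, 3 of 12 under median centring (median of all probes -0.11), 4 of 12 with the tumour channel alone and 4 of 12 without HDC-A replicate 2. In HDC-S against HDC-A, 9 of 12 were higher, with a median of 0.08, and 4 of 12 without HDC-S replicate 2 or without HDC-A replicate 1. The members' confidence intervals reached from 0.17 log2 units to either side of the difference for Fosl1 to 0.83 for Egr1.

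**Figure D2:**
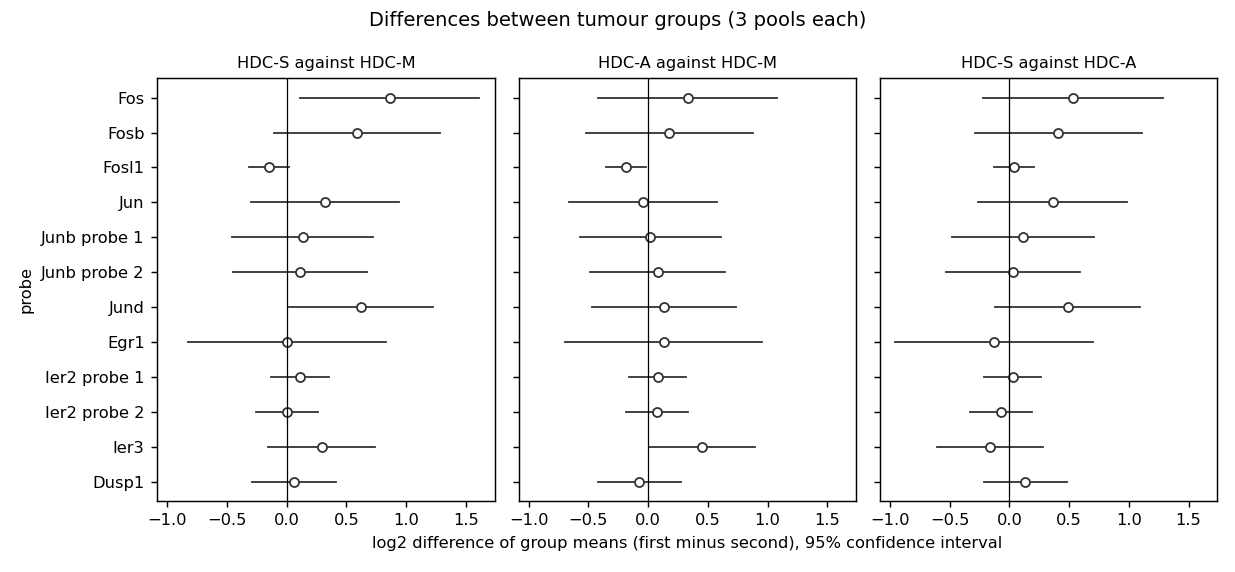
Difference of group means in log2 units (x axis, first group minus the other) with its 95% confidence interval for each of the 12 probes (y axis) in the 3 contrasts between tumour groups; open circles did not pass at an adjusted p of 0.05. Only the intervals of Fos (0.11 to 1.61) and Jund (0.02 to 1.23) in HDC-S against HDC-M, and of Fosl1 (-0.35 to -0.02) and Ier3 (0.01 to 0.90) in HDC-A against HDC-M, leave out 0.

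Most of these probes varied widely among pools of the same group. The median within-group SD of the 12 probes was 0.386 log2 units, against 0.0983 over all 26871 probes kept. The SD of 9 of the 12 lay above the 90th percentile of all probes (0.205), and that of 8 lay above the 90th percentile of probes within 0.5 log2 units of their own brightness. Egr1 had the largest SD, 0.557, at the 98.7th percentile, followed by Fos with 0.507 and Fosb with 0.469. Fosl1 (0.0884) and both Ier2 probes (0.145 and 0.161) lay below. With the scanner software's own ratios 4 of 12 lay above the 90th percentile, and without HDC-A replicate 2 and HDC-S replicate 2, a pair left out after the values were seen, 4 of 12.

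The spread was shared. HDC-S replicate 2 was the highest of the 9 arrays for 7 of the 12 probes (Fos, Fosb, Jun, Jund, Egr1, the brighter Ier2 probe and Dusp1), while it was highest for 12.1% of all probes. HDC-A replicate 2 was highest for 3 (both Junb probes and Ier3), against 14.9% of all probes. HDC-A replicate 1 was lowest for 6, against 10.5%. Measured against each probe's own mean over the arrays, HDC-A replicate 2 was above it for 12 of 12 probes, HDC-S replicate 2 for 10 of 12 and HDC-A replicate 1 for 0 of 12. The medians of these deviations were 0.28, 0.41 and -0.29. The median over all probes stayed between -0.02 and 0.01 on every array. Within-array loess centres each array and so held that median near 0 in advance, which makes it no comparison for the members. The deviations of HDC-A replicate 2 and HDC-S replicate 2 correlated at 0.55. The member values are ratios, and raw tumour signals did not all follow them. In HDC-A replicate 2 Fos read 201 units, within 170 to 616 over the pools, and Fosb 80.8, within 70.9 to 210. The Fos reference signal there was above only 1.59% of the negative controls. Brighter in the same pool were Egr1, at 335 against a median of 252, and Ier3, at 1603 against 1270.

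**Figure D3:**
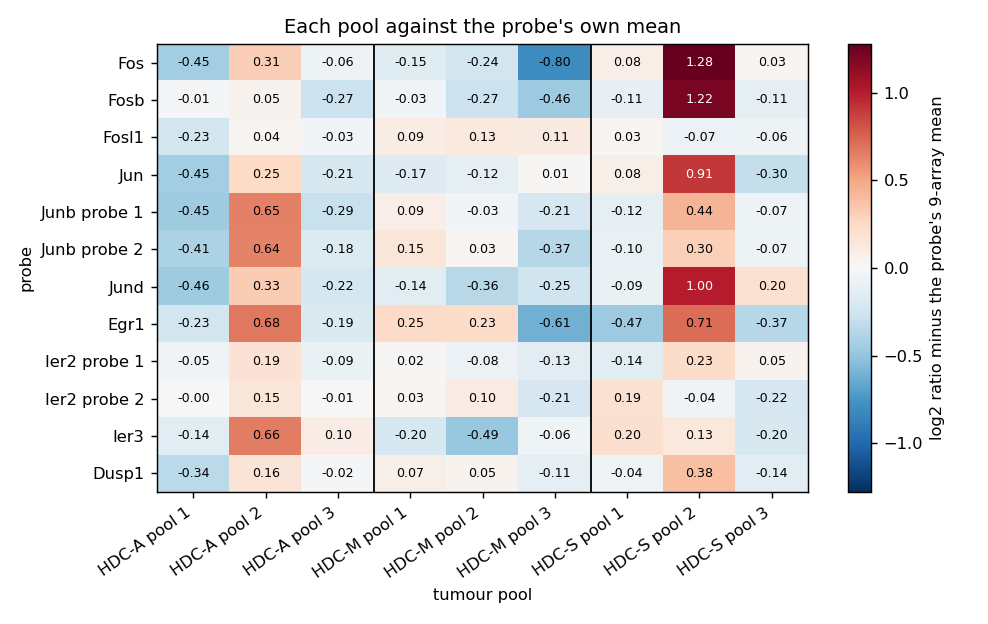
Log2 ratio of each pool (x axis) minus the probe's mean over the 9 arrays, as colour and number, for the 12 probes (y axis); black lines part the 3 groups. The columns of HDC-A pool 2 (12 of 12 above the mean) and HDC-S pool 2 (10 of 12) are mostly red, and that of HDC-A pool 1 (0 of 12) is blue.

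Over the 9 arrays the profile of Fos was followed by most members. Pearson's r with Fos was 0.92 for Jund, 0.91 for Fosb, 0.81 for Jun, 0.80 for Dusp1, 0.79 for Ier2, 0.71 for Egr1, 0.70 for Junb, 0.42 for Ier3 and -0.20 for Fosl1, with a median of 0.03 over 12321 named genes. These values share arrays, reference and normalisation and are given as a description. Without the 2 arrays whose Fos level lay farthest from the median (HDC-S replicate 2 and HDC-M replicate 3), r was 0.90 for Jund, 0.83 for Jun, 0.76 for Junb and 0.77 for Ier3, but 0.65 for Dusp1, 0.52 for Ier2, 0.30 for Egr1 and 0.24 for Fosb, and it turned to 0.41 for Fosl1. The likeness of Fosb and Egr1 to Fos rested on those arrays. The 5 named genes most like Fos were not early response genes: Gpi1 (0.96), which encodes a glycolytic enzyme, Ppp4r4 (0.96), a phosphatase regulator, Arhgap4 (0.95), Lamp1 (0.95), a lysosomal membrane protein, and Bcas1 (0.95). Without the same 2 arrays their r was 0.98, 0.89, 0.84, 0.80 and 0.52.

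Against the cultured HDC-M cells, 7 of the 10 genes passed as higher in at least 1 tumour group in the main fit, and none passed as lower. The limma test of the group mean against 0 called 6 of 12 probes higher in HDC-M, 7 in HDC-A and 9 in HDC-S, beside 34.0%, 38.9% and 38.2% of all probes. The reference was 1 RNA sample on every array, so the test leaves out the spread of the culture, a dye effect cannot be told apart from a difference, and the 3 comparisons share it; for HDC-A and HDC-S the line differs as well as the growth. Under median centring, which raised the median of all probes from 0.05 to 0.27 in HDC-M and from 0.06 to 0.15 in each of the others, 8, 8 and 9 probes were called, Fosl1 in HDC-A as lower. Among all called probes the share that was higher then rose from 58.8% to 84.8% in HDC-M, from 59.2% to 78.4% in HDC-A and from 59.5% to 78.2% in HDC-S. With no filter on dim probes it was 52.1% in HDC-M and 50.3% in HDC-S, and in HDC-A 11228 probes were called higher and 11230 lower.

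Fos was higher by 1.13 in HDC-M, 1.46 in HDC-A and 1.99 in HDC-S (SE 0.24; limma adjusted p = 0.00267, 0.000461 and 6.41e-05). In the reference channel Fos was hardly to be told from empty spots: it exceeded 95% of the negative controls on 1 of 9 arrays. The size of the Fos difference therefore rests on a reference signal near background. Egr1 was higher by 1.21, 1.34 and 1.21 (limma adjusted p = 0.00316, 0.00142 and 0.00262), and its reference signal exceeded 95% of the negative controls on 7 of 9 arrays. That signal was still only 1.00 to 1.23 times the median negative control, so the size of the Egr1 difference also rests on a reference near background. The scanner software's ratios, with no offset, gave larger values, 2.32 in HDC-M for Fos and 2.22 for Egr1. Junb was higher by 1.15, 1.17 and 1.28 on the brighter probe (SE 0.19) and by 0.71, 0.79 and 0.82 on the other, so the probes gave the same direction and differed in size. These 3 genes passed under every alternative run in all 3 groups.

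The smaller differences were less steady. Ier3 was higher by 0.37 (HDC-M), 0.82 (HDC-A) and 0.66 (HDC-S). Its call in HDC-M (limma adjusted p = 0.0471) was lost under 8 of 19 alternatives, among them the fit with HDC-M replicate 1 left out (adjusted p = 0.157) and that with HDC-M replicate 3 left out (0.211), and also without HDC-A replicate 3, HDC-S replicate 1 or HDC-S replicate 2 (0.0580 to 0.0609). Fosb passed in HDC-S (0.93, limma adjusted p = 0.00444) and not in HDC-M (0.34) or HDC-A (0.52, adjusted p = 0.0610). Without HDC-S replicate 2 it passed in HDC-M and HDC-A as well. The Fosb reference signal exceeded 95% of the negative controls on 0 of 9 arrays. Jund passed in HDC-S at 0.67 (adjusted p = 0.0113), and not without HDC-S replicate 2 (0.36, adjusted p = 0.0873). The brighter Ier2 probe passed in HDC-A (0.24) and HDC-S (0.27), and not without replicate 2 of the same group, where the values were 0.15 and 0.17 (adjusted p = 0.136 and 0.0960); it did not pass in HDC-M (0.16, adjusted p = 0.0993). The dimmer Ier2 probe passed in all 3 groups, at 0.26 in HDC-M (adjusted p = 0.0221), 0.33 in HDC-A (0.00553) and 0.26 in HDC-S (0.0182), with a reference signal above 95% of the negative controls on 1 of 9 arrays. Fosl1 and Dusp1 did not pass in any group, apart from Dusp1 under median centring (0.40 to 0.71 higher) and Fosl1 as lower in HDC-A under median centring and without HDC-A replicate 2, and as higher in HDC-M with the scanner software's ratios. Jun was the exception in direction, with means of -0.34 in HDC-M, -0.39 in HDC-A and -0.02 in HDC-S that did not pass, and that were 0.37, 0.00074 and 0.36 under median centring. Jun passed as lower under 2 of 19 alternatives in HDC-M, 2 of 19 in HDC-A and 1 of 19 in HDC-S. The lowest limma adjusted p was 0.00860, 0.00201 and 0.0167. Leaving out HDC-S replicate 2 was one of these alternatives in HDC-M and HDC-A (adjusted p = 0.0404 and 0.0222). A call in one group and none in another is not a difference between the groups, which the contrasts above tested.

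**Figure D4:**
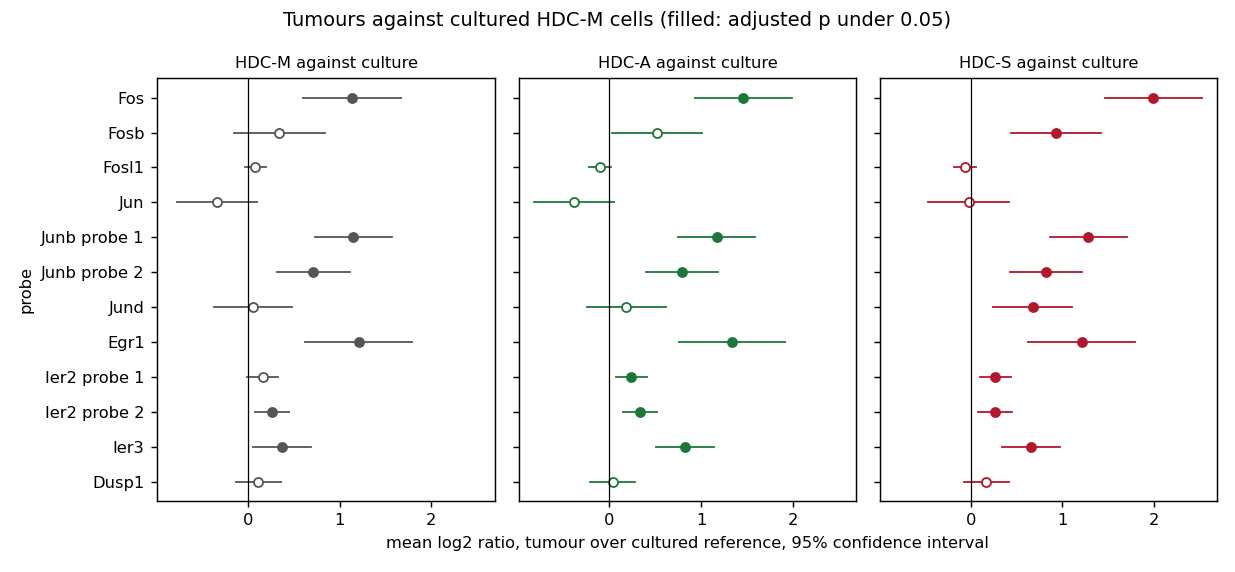
Mean log2 ratio of tumour over cultured reference (x axis) with its 95% confidence interval for the 12 probes (y axis) in each tumour group, with filled circles for an adjusted p under 0.05. Fos (1.13, 1.46 and 1.99), Egr1 (1.21, 1.34 and 1.21) and Junb lie clear of 0 in every group, and Jun, Fosl1 and Dusp1 do not.

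The wider pathway gave few calls between tumours. Of 18 measured partners of AP-1 in the bZIP family, 1 passed in HDC-S against HDC-M, 0 in HDC-A against HDC-M and 2 in HDC-S against HDC-A, all higher. Batf, a small AP-1 factor best known in lymphocytes, was 0.88 higher in HDC-S than in HDC-M (SE 0.16, limma adjusted p = 0.0473). Its log2 ratios of 1.41, 1.74 and 1.43 lay above 0.75, 0.86 and 0.32, but the call was lost when any of the 9 arrays was left out, and it was 2.30 with the scanner software's ratios (adjusted p = 0.448). Atf4, the factor of the amino acid and stress response, was 0.69 higher in HDC-S than in HDC-A (SE 0.10, adjusted p = 0.00794) and passed under 20 of 23 alternatives. It did not on the first scan day alone (0.66, adjusted p = 0.116), with scaling between arrays or under median centring. Maff was 0.58 higher (adjusted p = 0.0216) and passed under 14, not without HDC-A replicate 1, HDC-A replicate 3 or HDC-S replicate 2. The median of the list was 0.15, -0.04 and 0.08 in the 3 contrasts, against 0.01, 0.01 and 0.00 over all probes.

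In the feedback arm of the MAP kinase pathway, Dusp6 differed between HDC-A and both other groups. Of 16 measured phosphatases and feedback inhibitors, 0 passed in HDC-S against HDC-M, 2 in HDC-A against HDC-M (higher) and 1 in HDC-S against HDC-A (lower). Dusp6, a MAP kinase phosphatase that is itself switched on by the pathway it restrains, had log2 ratios of 1.39, 1.40 and 1.57 in HDC-A, 0.99, 0.84 and 0.83 in HDC-M, and 0.90, 0.78 and 0.76 in HDC-S. The HDC-A pools stood apart from all the others. The difference was 0.56 from HDC-M (SE 0.08, limma adjusted p = 0.0150), passing under 15 of 23 alternatives and not without HDC-A replicate 3 or HDC-M replicate 2, nor with scaling between arrays (0.21) or median centring (0.10). The HDC-S mean was -0.64 relative to HDC-A (limma adjusted p = 0.00485) and passed under 20 of 23. This call was lost under 3 (adjusted p up to 0.99987), among them the first scan day alone (-0.55, adjusted p = 0.103). Spry1, a receptor signalling inhibitor, exceeded its HDC-M level by 0.57 in HDC-A (adjusted p = 0.0459) and passed under 10 of 23; it was lost without HDC-A replicate 1 or 3, any HDC-M replicate, or HDC-S replicate 1 or 3. Dusp7 had the smallest p of the list in HDC-S against HDC-M, with a difference of -0.18 (adjusted p = 0.348). The list's median lay between 0.01 and 0.02 in the 3 contrasts.

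Among 28 measured kinases, Ras proteins and SRF, Elk and MRTF factors, only Elk3 passed, with -0.51 in HDC-S against HDC-A (limma adjusted p = 0.0294). The Elk3 call passed under 12 of 23 alternatives and was lost when any HDC-A or HDC-S replicate was left out. The smallest p in HDC-S against HDC-M belonged to Mapk14, which encodes p38 (-0.25, adjusted p = 0.0839). Of 42 measured other immediate early genes none passed in any contrast, with medians of 0.12, 0.09 and 0.05. Cebpd (0.77 in HDC-S against HDC-M, adjusted p = 0.142), Plk3 (-0.45 in HDC-A against HDC-M, 0.0766) and Csrnp1 (0.86 in HDC-S against HDC-A, 0.0553) had the smallest p. Of 20 genes with known AP-1 or Egr1 control, Ccnd1, which encodes cyclin D1, passed, with -0.73 in HDC-S against HDC-A (SE 0.15, limma adjusted p = 0.0236). The Ccnd1 call was lost under 10 of 23 alternatives (adjusted p up to 0.99987), among them without HDC-A replicate 3, HDC-S replicate 2 or HDC-S replicate 3. Lor, an epidermal gene (-2.73 in HDC-S against HDC-M, adjusted p = 0.128), and F3, tissue factor (0.81 in HDC-A against HDC-M, 0.110), did not pass. The median of these 20 was 0.12, 0.12 and 0.01 in the 3 contrasts.

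Some other gene lists were also high in the pools in which the log2 ratios of the immediate early genes were high, and some were not. The mean deviation of the 10 members from their own 9-array means was 0.62 in HDC-S replicate 2 and 0.33 in HDC-A replicate 2, and below 0 in the 7 others. The 42 other immediate early genes gave 0.31 and 0.24 in these pools and at most 0.05 elsewhere. The 15 hypoxia and glycolysis genes gave 0.43 and 0.35, and 0.21 in HDC-S replicate 1. The 13 heat shock genes gave 0.53 in HDC-S replicate 2 and 0.36 in HDC-S replicate 3, but -0.08 in HDC-A replicate 2. The 20 genes with known AP-1 or Egr1 control gave 0.13 in HDC-S replicate 2 and 0.45 in HDC-A replicate 2, beside 0.17 in HDC-M replicate 1. In HDC-S replicate 2 and HDC-A replicate 2 the 28 kinases, Ras proteins and SRF, Elk and MRTF factors gave -0.02 and -0.01. The 4 granulocyte markers measured gave -0.48 and -0.09 there. Of the 15 hypoxia genes 15 were above their HDC-M mean in HDC-S (median difference 0.33) and of the 13 heat shock genes 11 were (0.30), beside 53.2% of all probes. None passed there. These counts were not rerun under the alternatives, among which median centring moved the median of all probes to -0.12. In each of the hypoxia and heat shock lists 1 gene passed between tumours, in HDC-S against HDC-A. Ndrg1, a hypoxia gene, was 1.27 higher (limma adjusted p = 0.0221) and Hspe1, a mitochondrial chaperonin, 0.37 higher (adjusted p = 0.0221). Each passed under 12 of 23 alternatives. Both were lost without any HDC-S replicate or HDC-A replicate 3, Ndrg1 also without HDC-A replicate 1 and Hspe1 without HDC-A replicate 2. Pdk1 (0.35, adjusted p = 0.151) and Hsph1 (0.56, 0.193) in HDC-S against HDC-M, and Adm (0.96, 0.247) and Hspe1 (-0.35, 0.0521) in HDC-A against HDC-M, did not pass.

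Markers of other cell types also differed among these pools. All 10 fibroblast markers were measured, and their mean log2 ratio was highest in HDC-A replicate 2 (3.66) and HDC-S replicate 2 (3.02); it ranged from 2.16 to 3.66 in HDC-A, from 2.09 to 2.64 in HDC-M and from 1.86 to 3.02 in HDC-S. The mean of all 10 macrophage markers was 2.52 and 2.44 in these 2 pools and ranged from 1.74 to 2.52 in HDC-A, 1.24 to 2.07 in HDC-M and 1.79 to 2.44 in HDC-S. It was lowest in HDC-M replicate 3, the pool in which the log2 ratios of Fos, Fosb and Egr1 were lowest. That array was lowest for 15.6% of all probes, the largest such share of the 9 arrays. In raw tumour signal it was not the lowest pool for these genes: Fos read 242 against a minimum of 170, Fosb 113 against 71 and Egr1 252 against 189. None of the fibroblast or macrophage markers passed in a contrast between tumours. Endothelial markers were highest in HDC-A replicate 2 (mean 1.41) but not in HDC-S replicate 2 (0.95, within 0.68 to 1.41 over all pools). Markers of melanocytes, the cell of origin, had means between 0.19 and 0.76 in all pools, with 8 of 10 measured. Of these, Oca2 passed as lower in HDC-S than in HDC-M (-1.02, adjusted p = 0.0118) and than in HDC-A (-0.62, adjusted p = 0.0171), and Tyr than in HDC-A (-0.48, adjusted p = 0.0121). The Oca2 calls were lost without HDC-M replicate 1 or 2 or HDC-S replicate 1, and without HDC-A replicate 1 or 3 or HDC-S replicate 3, and the Tyr call without HDC-S replicate 3. Over the 23 alternatives the Oca2 calls passed under 15 and 16, and the Tyr call under 18. The 9 skeletal muscle markers measured ranged from 1.61 to 3.07 in HDC-A, 1.18 to 1.74 in HDC-M and 0.61 to 2.16 in HDC-S, with HDC-A replicate 2 again highest. The 10 keratinocyte markers ranged from 1.098 to 2.25, 1.56 to 2.68 and 0.09 to 1.21. The part of hypoxia, stress and stromal content in the pool-to-pool values of the immediate early genes was not tested.

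**Figure D5:**
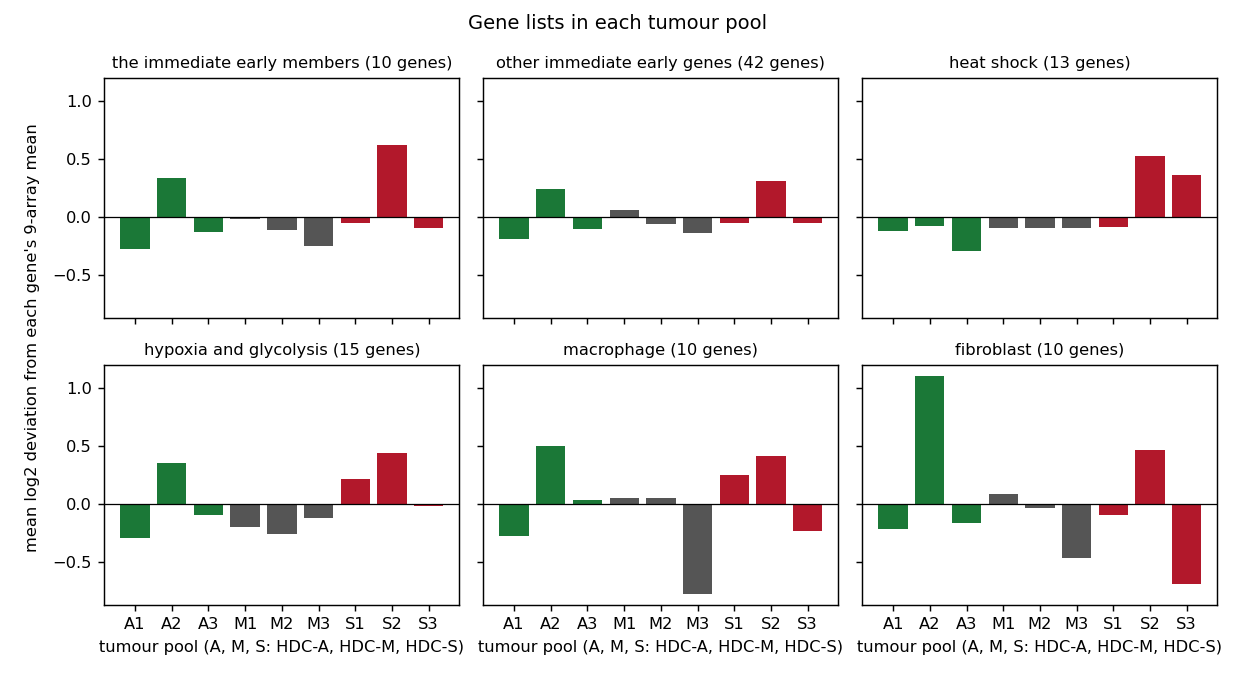
Mean deviation in log2 units from each gene's 9-array mean (y axis) for 6 gene lists in the 9 tumour pools (x axis), coloured by group. The immediate early members peak in HDC-S pool 2 (0.62) and HDC-A pool 2 (0.33), as do the hypoxia and glycolysis genes (0.43 and 0.35), while the heat shock genes are high in HDC-S pools 2 and 3 (0.53 and 0.36).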

How the data were processed

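RNA of 9 tumour pools was measured on 2-colour arrays against cultured HDC-M cells. The deposited scanner files hold intensity values of both dyes; the software was Agilent Feature Extraction 8.5.1.1, per the file headers. Further columns give other marks per spot (well above background, saturated, outlier, spot type). The deposited value table holds log10 ratios of Cy5 over Cy3, equal to the scanner's own dye-normalised ratios on all arrays. Here intensities were corrected by normexp (offset 50) and loess, with control and outlier spots at weight 0, in limma 3.58.1 and R 4.3.3. Spots of a probe were averaged, and 26871 of 41174 probes were kept (Cy5 well above background on at least 3 arrays). For Cy3 the mark is also carried by most negative controls, so the level of those controls took its place. Probes were named by accession or symbol from a RefSeq table.

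Group means were fitted over all 9 arrays with lmFit and eBayes, with Benjamini-Hochberg adjustment over all probes and a threshold of 0.05. The named genes are all members, every listed gene that passed between tumours, otherwise the smallest p per pathway list and contrast, and the 5 genes most like Fos; 1 gene that this rule names is not reported here. The members and the lists were chosen with earlier results of these data known. Alternatives cover background, normalisation, filter, outliers, probe, array weights, scan day, replicate block, groups fitted and arrays left out. Deviations of same-numbered pools of HDC-A and HDC-S correlated at 0.11, 0.55 and 0.14. Only the 0.55, that of both replicates 2, was above the 0.29 that different numbers reached. These values do not settle whether the numbers pair HDC-A with HDC-S. With HDC-M the correlations ran from -0.19 to 0.15, which does not pair HDC-M. The labels name no shared animal or day.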

Additional observations from a re-analysis of the deposited data

How the results depend on the processing

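None of the 12 probes was called between tumour groups under any alternative run; the replicate block, a fit with replicate number as a term over all 9 arrays, also gave 0 in each contrast, as did scan day as a block. The genes of the lists named as passing between tumours also passed with the block. Over all probes the calls moved widely: 183 for HDC-S against HDC-M became 4 without HDC-M replicate 2 and 719 with array weights, 387 for HDC-A against HDC-M became 2 and 1412 for HDC-S against HDC-A became 4 under median centring. With array weights 387 became 648. With the replicate block the calls for HDC-S against HDC-M were 38 higher and 32 lower, 117 higher and 70 lower for HDC-A against HDC-M, and 586 higher and 537 lower for the contrast of HDC-S with HDC-A. Leaving out arrays in turn, 3 to 7 probes were called against culture in HDC-M (3 without HDC-M replicate 1; 7, with Jun as lower, without HDC-S replicate 2), and 6 to 9 in HDC-S (6 without HDC-S replicate 2). The 9 probes with an SD above the 90th percentile became 4 with the authors' value table and 4 without both high pools, a setting chosen after seeing the data.

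None of the single differences that changed sign passed at 0.05 on the changed side. Under median centring, HDC-S minus HDC-M was -0.17 for Dusp1, -0.21 for Egr1, -0.17 for Ier2, -0.12 for Ier3, -0.013 for Jun and -0.32 for Junb; HDC-A minus HDC-M was -0.095 for Egr1, -0.19 for Ier2, -0.41 for Junb and -0.30 for Jund; against culture, Fosl1 was -0.076 and Jun 0.37 in HDC-M, Jun 0.00074 in HDC-A and 0.36 in HDC-S. With scaling between arrays, HDC-A minus HDC-M was -0.14 for Egr1, 0.051 for Jun and -0.33 for Junb, and HDC-S minus HDC-M was -0.23 for Egr1 and -0.19 for Junb. With the Cy5 channel alone, HDC-A minus HDC-M was -0.065 for Egr1, -0.094 for Fos, -0.000596 for Fosb and -0.079 for Jund, HDC-S minus HDC-A was 0.049 for Egr1 and -0.15 for Ier2, and HDC-S minus HDC-M was -0.016 for Egr1 and 0.00034 for Fosl1. With array weights, HDC-A minus HDC-M was -0.11 for Egr1 and -0.14 for Junb, Egr1 was 0.014 for HDC-S minus HDC-A and -0.10 for HDC-S minus HDC-M, and against culture Dusp1 was -0.0065 in HDC-A and Jun 0.042 in HDC-S. On the first scan day alone, HDC-A minus HDC-M was -0.015 for Egr1 and 0.044 for Jun, Egr1 was -0.12 for HDC-S minus HDC-M, Ier2 -0.025 for HDC-S minus HDC-A, and Jun 0.24 for HDC-S over culture; the other scan day holds 1 array per group and gives no test. With the authors' value table, Egr1 was -0.27 for HDC-S minus HDC-M and Dusp1 -0.049 for HDC-A over culture. With no background correction, Egr1 was -0.080 for HDC-S minus HDC-M and Jun, for HDC-S over culture, 0.00748. The other Ier2 probe gave -0.069 for HDC-S minus HDC-A. Without both high pools, HDC-S minus HDC-M was -0.096 for Dusp1, -0.37 for Egr1, -0.022 for Jun and -0.046 for Junb, HDC-A minus HDC-M was -0.16 for Egr1, -0.0027 for Ier2, -0.32 for Junb and -0.090 for Jund, Ier3 was 0.021 for HDC-S minus HDC-A, and Dusp1 and Jund were -0.078 and -0.037 for HDC-A over culture.

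With arrays left out in turn, sign changes gave these ranges. HDC-S minus HDC-M ran from -0.096 to 0.17 for Dusp1, -0.37 to 0.22 for Egr1, -0.022 to 0.58 for Jun and -0.046 to 0.24 for Junb. HDC-A minus HDC-M ran from -0.19 to 0.066 for Dusp1, -0.16 to 0.29 for Egr1, -0.0027 to 0.14 for Ier2, -0.24 to 0.11 for Jun, -0.32 to 0.23 for Junb and -0.090 to 0.30 for Jund. HDC-S minus HDC-A ran from -0.024 to 0.25 for Dusp1, -0.50 to 0.17 for Egr1, -0.031 to 0.63 for Fosb, -0.040 to 0.096 for Fosl1, -0.065 to 0.12 for Ier2, -0.33 to 0.065 for Ier3 and -0.097 to 0.45 for Junb. Against culture, Dusp1 ran from -0.078 to 0.18 and Jund from -0.037 to 0.36 in HDC-A, Jund from -0.00018 to 0.11 in HDC-M, and Jun from -0.36 to 0.24 in HDC-S. The cause of these changes was not tested. Signal near background limits Fos, Fosb, Fosl1, Egr1 and the dimmer Ier2 probe in the reference channel. In the tumour channel Fosl1 reached at most 1.28 times the median negative control and the dimmer Ier2 probe at most 1.35. Outside HDC-S replicate 2, Fosb reached at most 1.76.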
